A study of Mus musculus with 6 samples.

Results

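The 8 genes Caap1, Plaa, Ift74, Lrrc19, Tek, Eqtn, Mysm1 and Fggy follow each other on mouse chromosome 4 and, with Jun between Mysm1 and Fggy, fill 1.43 Mb of it (GRCm38, chromosome 4, 94500081 to 95926939). They were chosen by their counts in young replicate 2, where these neighbours were high together, and all 8 were found among the 21485 genes common to the 6 count matrices. The matrices hold unique molecular identifier (UMI) counts from droplet-based 3′ single-cell RNA sequencing of muscle-derived stem/progenitor cells. These cells adhere slowly to collagen-coated plastic, were enriched from dissociated mouse skeletal muscle by serial preplating, and were then grown in serum-rich proliferation medium. There are 3 young populations, labelled Y1-1, PtC5 and FT-QU (young replicates 1 to 3), and 3 old populations, labelled O1-1, NA-f2 and NA-f3 (old replicates 1 to 3). The labels call them biological replicates and name no age in months, sex, strain, genotype or treatment, so each sample is 1 cultured population and not a tissue.

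Most of the 8 proteins act inside the cell in unrelated processes. Caap1 encodes an inhibitor of caspase activity, Plaa a ubiquitin-binding partner of the segregase VCP, Ift74 a core subunit of the intraflagellar transport complex B that builds cilia, Mysm1 a deubiquitinase of histone H2A, and Fggy a carbohydrate kinase. The others are best known from particular tissues: Tek encodes the angiopoietin receptor Tie2 of endothelial cells, Lrrc19 a leucine-rich repeat membrane protein of kidney and intestine, and Eqtn a protein of the sperm acrosome. Jun encodes a subunit of the transcription factor AP-1, an early response gene of many cell types. Genes that share only a stretch of chromosome are usually controlled by their own promoters.

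The promoters of the members differ widely in base composition, and 3 are shown because they span the range of CpG content in the block. Each is the run of 250 bases before the RefSeq gene start (GRCm38.p6), 5′ to 3′ on the strand of the gene, with every CpG in capitals.
Plaa, minus strand, chr4:94603248-94603497: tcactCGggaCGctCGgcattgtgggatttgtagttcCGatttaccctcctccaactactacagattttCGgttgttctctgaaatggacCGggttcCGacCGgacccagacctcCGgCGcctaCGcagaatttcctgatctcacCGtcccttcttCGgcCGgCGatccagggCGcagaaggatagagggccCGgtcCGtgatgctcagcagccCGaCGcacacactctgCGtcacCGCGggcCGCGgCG
Tek, plus strand, chr4:94739039-94739288: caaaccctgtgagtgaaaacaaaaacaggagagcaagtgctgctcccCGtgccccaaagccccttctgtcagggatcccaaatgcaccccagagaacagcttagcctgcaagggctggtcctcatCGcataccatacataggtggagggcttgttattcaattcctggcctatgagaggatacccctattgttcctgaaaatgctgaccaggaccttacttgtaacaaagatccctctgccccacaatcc
Lrrc19, minus strand, chr4:94650145-94650394: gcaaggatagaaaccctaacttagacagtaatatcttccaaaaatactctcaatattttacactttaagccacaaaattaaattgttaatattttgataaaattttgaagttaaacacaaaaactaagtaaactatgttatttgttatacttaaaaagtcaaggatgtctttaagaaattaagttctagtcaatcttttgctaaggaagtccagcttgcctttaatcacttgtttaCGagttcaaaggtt
Plaa has 26 CpG in this window, Tek has 2 and Lrrc19 has 1, against a median of 6 over 32851 promoters of the same length. Of the other matched members, Mysm1 has 19, Caap1 15, Ift74 11, and the 2 listed starts of Fggy 7 and 4, so 7 of the 8 members were matched. None of the matched member promoters, nor that of Jun with its 15 CpG, holds the AP-1 motif TGANTCA, the CRE motif TGACGTCA or TATAAA on either strand, which occur in 6.75%, 1.55% and 12.4% of all these promoters. The ETS motif CCGGAAG occurs once each in the Caap1 and Mysm1 windows and in 6.91% of all promoters. The E-box CAGCTG occurs once in Caap1 and in 13.0% of all promoters. No motif of the 6 searched, which also included the NRF1 motif, was present in all matched members. Only the exact letters were searched, so variants of these motifs were not counted, and a promoter without a hit may still hold a related site.

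Young replicate 2 stood apart from the other 5 samples in every member, and this difference is what the genes were chosen for, so it is described here and not tested. In the 8674 to 12541 cells kept per sample, with median depths of 13001 to 19951 UMIs per cell, the 8 genes took 0.600% of all UMIs of the common genes in young replicate 2. The share was 0.0171% in young replicate 1 and 0.0218% in young replicate 3, while the old populations gave 0.0199%, 0.0208% and 0.0178%. The value in young replicate 2 was 30.2 times the median of the other 5 samples, and the ratio to any single one of them lay between 27.6 and 35.0. Among the 11671 genes with a mean CPM (UMI count scaled to a library total of 1000000) of at least 1, 1.84% were at least 2 times higher in young replicate 2 than in the highest other sample, and all 8 members were among them. Tek and Eqtn reach that mean only through young replicate 2, and the rule used these values, so nothing is read from this count. In the other samples 0.368% (young replicate 1), 1.39% (young replicate 3), 1.93%, 1.64% and 1.52% (old replicates 1 to 3) of the genes stood out in this way, with no member among them. Of the 9 genes the block holds on both gene lists, Lrrc19 was the member nearest to that limit at 14.4-fold, and the next common genes outside the block, Tusc1 before it and Hook1 after it, were at 0.929 and 0.597 times the highest other sample.

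The markers of the labelled cell type varied between the populations. The 13 myogenic genes summed to 3023 CPM in young replicate 2 and to between 368 and 6372 CPM in the others. Pax7, which marks muscle stem cells, was nearly missing in young replicate 3 (5 counts), as was Myf5 in young replicate 1 (1 count). Of the lists for other cell types, 3 were highest in young replicate 2. The 9 fibro-adipogenic genes summed to 434 CPM there and to 206 to 349 CPM elsewhere, and the 7 smooth muscle and pericyte genes to 92.3 CPM against 14.7 to 45.1 CPM. The fibro-adipogenic sum was mostly Gsn (198 CPM), Col3a1 (132 CPM) and Smoc2 (103 CPM), of which Col3a1 and Smoc2 had their highest value there, and the pericyte sum was mostly Notch3 (68.3 CPM, at most 42.0 elsewhere). Pdgfra (0.036 CPM), Col1a1 (0.010 CPM) and Abcc9 (0.021 CPM) were lower there than in any other sample. The 5 glial genes summed to 22.4 CPM against 0.801 to 3.42 CPM, of which the neurotrophin receptor Ngfr gave 19.9 CPM, with the glial factor Sox10 near 0 in every sample. The immune list (4.43 CPM, 1.59 to 8.27 elsewhere), the endothelial list (4.60 CPM) and the intestine and kidney epithelium list (19.0 CPM, 3.88 to 20.6 elsewhere) lay within the range of the other samples. Within the immune list Csf1r was highest in young replicate 2 (3.14 CPM, at most 0.352 elsewhere) and Cd68 lowest (1.09 CPM, 1.22 to 7.33 elsewhere). What part these differences have in the block values was not tested. Young replicate 1 and old replicate 1 were counted on a shorter gene list than the other 4 samples. Any pair of samples shared 23 to 35 cell barcodes.

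The genes with general cellular roles were detected in every sample and had their highest value in young replicate 2, 742 CPM or more. Plaa (ENSMUSG00000028577; 94567514 to 94603244, minus strand) measured 56.6, 2107 and 95.3 CPM in young replicates 1 to 3, compared with 66.5, 92.3 and 70.5 CPM in old replicates 1 to 3. Caap1 (ENSMUSG00000028578; 94500081 to 94556796, minus strand) measured 17.6, 742 and 21.3 CPM in young replicates 1 to 3, compared with 20.6, 21.9 and 21.8 CPM in old replicates 1 to 3. Both genes had a single high sample, and for Caap1 the other 5 lay within 1.24-fold of each other.
Ift74 (ENSMUSG00000028576; 94614491 to 94693229, plus strand) measured 58.9, 1220 and 67.5 CPM in young replicates 1 to 3, compared with 54.2, 43.4 and 30.0 CPM in old replicates 1 to 3. Mysm1 (ENSMUSG00000062627; 94942040 to 94979100, minus strand) measured 24.8, 875 and 28.3 CPM in young replicates 1 to 3, compared with 32.5, 19.9 and 22.6 CPM in old replicates 1 to 3. Without young replicate 2, the lowest young value of Ift74 still lay above the highest old value, whereas the young values of Mysm1 lay within the range of the old ones.
Fggy (ENSMUSG00000028573; 95557507 to 95926939, plus strand) measured 12.6, 958 and 2.38 CPM in young replicates 1 to 3, compared with 23.1, 29.5 and 31.3 CPM in old replicates 1 to 3. It was the most variable member among the other 5 samples, which spanned 13.1-fold, and there both young values lay below all 3 old ones.

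The members known from other tissues were close to absent outside young replicate 2. Tek (ENSMUSG00000006386; 94739289 to 94874976, plus strand) measured 0.0674, 58.9 and 0.159 CPM in young replicates 1 to 3, compared with 0.396, 0.253 and 0.339 CPM in old replicates 1 to 3. Its value in young replicate 2 was 148 times that of the highest other sample (95% interval 115 to 195, counting error only). Lrrc19 (ENSMUSG00000049799; 94636653 to 94650144, minus strand) measured 0.681, 36.9 and 2.57 CPM in young replicates 1 to 3, compared with 1.14, 0.878 and 1.19 CPM in old replicates 1 to 3. It lies within the span of Ift74 on the opposite strand, and since how strand was used in counting is not given in the sources used here, reads of the 2 genes may not be fully separated. Eqtn (ENSMUSG00000028575; 94907267 to 94928843, minus strand) measured 0.135, 6.08 and 0.127 CPM in young replicates 1 to 3, compared with 0.225, 0.231 and 0.214 CPM in old replicates 1 to 3, and was 26.3 times the highest other sample (19.3 to 36.9). Jun (ENSMUSG00000052684; 95049034 to 95052222, minus strand), which is no member, was also highest in young replicate 2, with 107, 2963 and 78.8 CPM in young replicates 1 to 3, compared with 155, 122 and 129 CPM in old replicates 1 to 3.

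**Figure D1:**
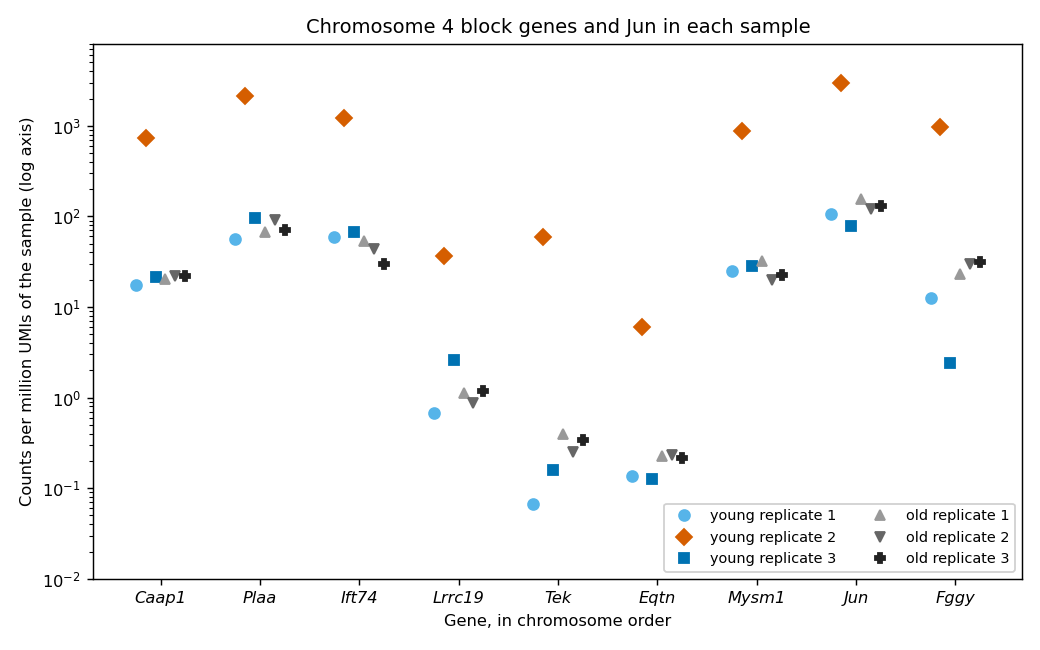
CPM of the 8 members and Jun (x axis, chromosome order) in each of the 6 samples (symbols) on a log axis. Young replicate 2 is the highest sample for every gene, from 14.4 times the next sample for Lrrc19 to 148 times for Tek.

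Runs of neighbours were sought among the common genes with a mean of at least 1 CPM, in chromosome order. The 9 from Caap1 to Fggy formed an unbroken run at 10 times or more the highest other sample. The next longest run in young replicate 2 had 2 genes (Krt33a and Krt33b), and in the other 5 samples no run at 10-fold was longer than 1 gene. Tek and Eqtn reach that mean only through young replicate 2. The members were chosen on these same values, so the run is described and nothing is read from its length. None of the 10 expressed genes on either side of the block reached 2-fold over the highest other sample. Tusc1, the nearest of them before Caap1 at 1.16 Mb, measured 16.7, 15.5 and 12.4 CPM in the 3 young populations, compared with 10.3, 14.2 and 10.7 CPM in the 3 old ones. Hook1, which starts 40301 bp after the end of Fggy and encodes a dynein-associated linker protein, measured 0.0823, 2.13 and 0.360 CPM in the 3 young populations, compared with 0.277, 1.54 and 3.56 CPM in the 3 old ones. The common list has no expressed gene in the 1.16 Mb before Caap1, and the longer gene list has genes there that were also higher: the non-coding gene Gm12648 (94089576 to 94425588) had 6650 counts in young replicate 2 and 16 to 40 in the other 3 samples counted on that list. It was 162 times the highest of these 3 samples, while Gm12655, between it and Caap1, was at 3.46 times and Gm12649, farther out, at 4.92 times (59 counts against 7 to 11). These ratios are over 3 other samples and those of the members over 5.
Genes farther along the chromosome moved much less. On the log2(CPM + 0.5) scale, the median difference of young replicate 2 from the median of the other samples was 0.56 over the 215 expressed genes before the block, 0.07 over the 379 after it and 0.00 over all other chromosomes, compared with 4.99 over the 8 members. The same median before the block was between -0.35 and 0.02 in the other samples.

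**Figure D2:**
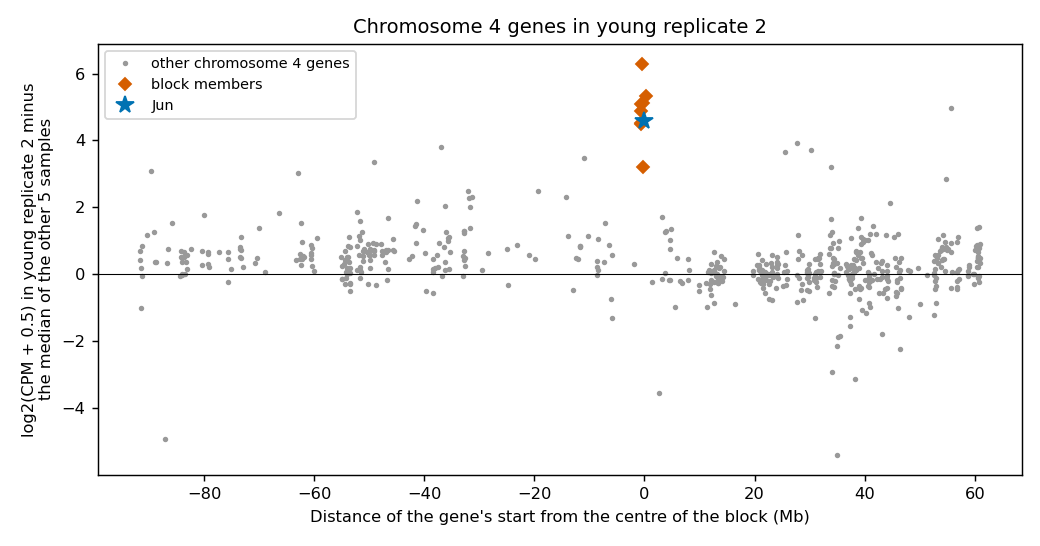
Difference in log2(CPM + 0.5) between young replicate 2 and the median of the other 5 samples (y axis) for chromosome 4 genes by distance from the block centre (x axis, Mb). The members and Jun stand between 3.21 and 6.30, and the genes before the block centre on 0.56.

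Single cells were compared at an equal depth, each thinned at random to 5000 UMIs, which kept 8444 to 12168 cells per sample. In young replicate 2 a cell held 28.6 ± 26.1 block UMIs (mean ± SD over 10646 cells of 1 sample), with a median of 22, a 10th percentile of 6, a 90th of 60 and a highest value of 397. In the other 5 samples the mean lay between 0.877 and 1.10 and no cell exceeded 8. The distributions overlapped at the bottom, where 17.2% of the cells of young replicate 2 held 8 or fewer. In that sample 80.4% of the cells held at least 10 block UMIs and no cell of the other samples did. A cell without any block UMI was rare in young replicate 2, at 63 of 10646 cells (0.592%; 95% Wilson interval 0.463 to 0.756, counting error only), against 34.6% to 42.9% elsewhere.
Individual members were found in most of these cells. Plaa was detected in 96.0% of the thinned cells of young replicate 2 and in 24.7% to 36.8% elsewhere, Ift74 in 90.8% (14.4% to 28.7% elsewhere) and Mysm1 in 87.2% (9.85% to 14.7%). Caap1 was detected in 83.9% (8.98% to 10.5%) and Fggy in 83.1% (1.17% to 14.1%). The tissue-restricted members were found in fewer, with Tek in 16.6% (0.0118% to 0.252%), Lrrc19 in 15.4% (0.391% to 1.27%) and Eqtn in 2.82% (0.0564% to 0.131%). At this depth a missing UMI does not show that a cell lacks the transcript, and with no cell type at hand that is known to lack it, a single UMI does not show that a cell expresses it.

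**Figure D3:**
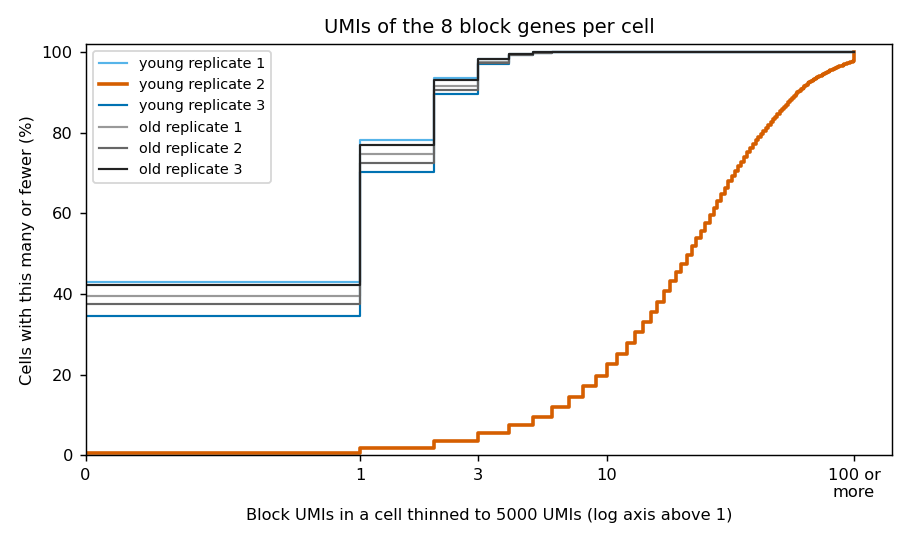
Cumulative share of cells (y axis, %) by number of block UMIs in a cell thinned to 5000 UMIs (x axis, log above 1), one line per sample. Young replicate 2 has its median cell at 22 block UMIs, and the other 5 samples have all their cells at 8 or fewer.

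The spread between cells of young replicate 2 was wide beyond counting noise. Expressed as the squared coefficient of variation beyond Poisson noise, (variance − mean) / mean squared, it was 0.796 in young replicate 2 and 0.0614 to 0.113 in the other samples. Most of it was common to the members: the covariance between the first 4 and the last 4 genes of the block, scaled by the product of their means, was 0.747 there and 0.0617 to 0.126 elsewhere. These 2 sets of 4 genes correlated at r = 0.760 across the cells of young replicate 2 and at 0.0253 to 0.0436 across those of the other samples. The cells of a sample share 1 library, and counts near 1 UMI per cell in the other samples leave little room for a correlation, so these values are descriptions.

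Members kept together in pairs as well. In young replicate 2 the 28 pairs of members had a median r of 0.373, and 27 of them exceeded 0.1, compared with none of 28 in each other sample. The 6 pairs among Caap1, Plaa, Ift74 and Mysm1 had the highest r, from 0.692 (Ift74 with Mysm1) to 0.771 (Plaa with Mysm1). The 4 pairs of these genes with Fggy, which lies beyond Jun, were between 0.467 and 0.492. The 18 pairs that involve the sparsely counted Lrrc19, Tek or Eqtn ran from 0.0633 to 0.424, and the lowest was Lrrc19 with Eqtn. Sparse counts lower r, and the order was not the same on the covariance scaled by the product of the means, which was 0.700 to 0.884 for the first 6 pairs, 0.642 to 0.716 for those with Fggy and 0.704 to 3.12 for the 18 sparse pairs, with Tek and Eqtn the highest.
Tek varied more between cells than the other members in which a spread could be computed, with an excess squared coefficient of variation of 6.01, followed by Fggy at 1.64 and Lrrc19 at 1.30, while Caap1, Plaa, Ift74 and Mysm1 lay between 0.816 and 0.980. For Fggy such values were also found elsewhere, with 2.08 in old replicate 1, 1.08 in old replicate 2, 0.568 in old replicate 3 and 0.977 in young replicate 1, whereas Caap1, Plaa, Ift74 and Mysm1 lay at or under 0.279 in the other samples.

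**Figure D4:**
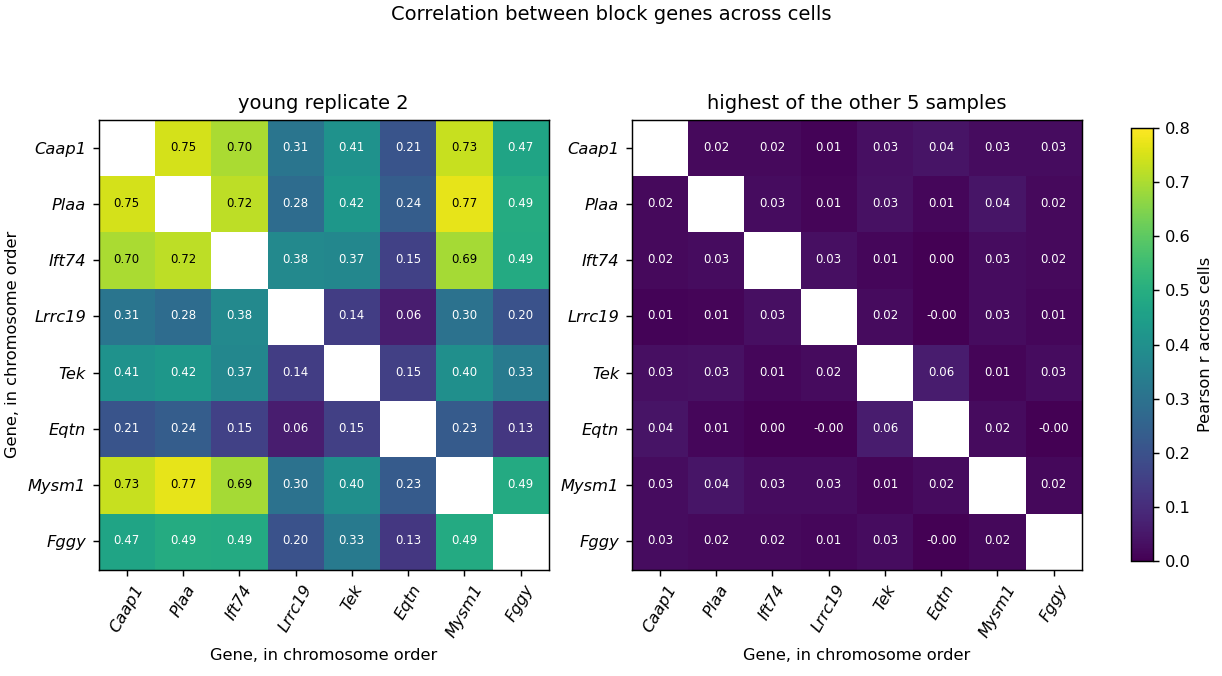
Pearson correlation between members (both axes, chromosome order) across cells thinned to 5000 UMIs, in young replicate 2 and as the highest of the other 5 samples. Pairs among Caap1, Plaa, Ift74 and Mysm1 reach 0.692 to 0.771 in young replicate 2, and no pair passes 0.1 elsewhere.

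Jun was the gene outside the members that followed the block most closely across cells of young replicate 2. Its UMIs correlated with the block sum at r = 0.610 there and at 0.0290 to 0.0525 in the other samples. The summed 10 genes before and 10 genes after the block had an r of -0.03 and 0.07 with it. Of the 10 genes before the block, Rps6 measured 1698 CPM in young replicate 2 and no other more than 112 CPM. The r of that sum therefore describes mostly Rps6. Among 7611 genes found in at least 5% of the cells, the next were Ebf1 (0.514), an early B-cell factor also expressed in mesenchymal cells, Serpinb2 (0.423), a plasminogen activator inhibitor, Sgk1 (0.414), a serum- and glucocorticoid-induced kinase, and Ltbp1 (0.403), which binds latent TGF-beta. All 4 lie on other chromosomes, and the median r over the genes was 0.0178. The lowest values belonged to Fth1 (-0.35), Pkig (-0.34), Tpm1 (-0.32), Eno3 (-0.31) and Tnnt1 (-0.30), of which Tpm1, Eno3 and Tnnt1 encode proteins of differentiated muscle.
Across the 6 samples, the genes whose log2(CPM + 1) was most like that of the block were Gria1 (r = 0.997), Adam8 (0.996), Igsf5 (0.994), Arhgap26 (0.991) and Xpa (0.987). These correlations rest on the 1 high sample, and 74 of the 9624 genes ranked reached at least 0.9. Gria1, a glutamate receptor subunit on chromosome 11, measured 57.0 CPM in young replicate 2 and at most 0.416 CPM elsewhere.

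Detection of Tek in young replicate 2 was not accompanied by other endothelial transcripts. An endothelial marker UMI was present in 2.15% of its 1769 Tek-positive cells and in 2.14% of its 8877 Tek-negative cells. The 12 endothelial markers summed to 4.60 CPM in that sample and to 3.30 to 11.8 CPM in the others, with Cdh5, the endothelial cadherin, at 0.114 CPM and the related receptor Tie1 listed at 0. The 8 other genes of the Tie receptor list summed to 30.1 CPM in young replicate 2, within the 14.1 to 62.0 CPM of the other samples. The ligand Angpt1 measured 7.22 CPM there and 3.41 to 46.5 CPM elsewhere. Lists built around other members also showed no level like that of the member itself in young replicate 2. The 15 other intraflagellar transport B genes summed to 455 CPM (378 to 549 elsewhere), the 9 histone H2A deubiquitinases and ligases to 233 CPM (196 to 284) and the 10 genes of caspase inhibition and apoptosis to 1223 CPM (1192 to 1952). The 9 VCP and ubiquitin partners of Plaa, with 869 CPM, and the 9 genes of sugar kinases and pentose phosphate, with 805 CPM, lay above the other samples (500 to 687 and 578 to 771), by less than 1.5-fold. Vcp itself lies on chromosome 4 before the block. It differed by 0.85 in log2(CPM + 0.5) from the median of the other samples, and its part in the sum was not tested. The 10 male germ cell markers summed to 0.858 CPM in young replicate 2, with 2 of them listed at 0, and to 0.471 to 3.59 CPM elsewhere.

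The first comparison of the study, old against young, detected no change in any member. edgeR's quasi-likelihood test on summed counts called 0.00689% of 14512 genes at a Benjamini-Hochberg adjusted p under 0.05, which is 1 gene (Cyba), and none of the 8 members. At an unadjusted p under 0.05 it counted 512 genes and no member, and DESeq2 called 219 genes and no member. The log2 fold change ran from -5.02 (SE 3.70) for Tek to -2.63 (SE 1.82) for Eqtn, with an adjusted p of 1.00 for each member. All 8 were lower in the old samples on average, and these averages rest on young replicate 2.
Without that sample, 0.00671% of 14896 genes were called and again no member, and 4 members changed direction: Fggy to 2.27 (SE 0.949), Tek to 1.47 (SE 0.785), Eqtn to 0.66 (SE 0.731) and Caap1 to 0.0075 (SE 0.282). Ift74 became -0.67, Lrrc19 -0.57, Mysm1 -0.17 and Plaa -0.14. The adjusted p of each was again 1.00. The median over the 8 members was -2.98 with all samples, beside -0.01 over all genes tested, and -0.07 without young replicate 2, beside 0.0037. With 3 populations a group and 1 of them far from the rest, a difference between the ages was not detected for these genes, and none is shown to be absent.

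The second comparison, of cycling cells (scored S or G2/M from 43 S and 54 G2/M genes) against G1 cells within each sample, showed small differences for the members. edgeR with the sample as a block called 48.8% of 12217 genes at an adjusted p under 0.05, 21.6% as higher and 27.3% as lower. Of the 6 members tested that did not need young replicate 2 to pass the filter on low counts, it called 1. With 6 genes this count is not read against the share over all genes. Caap1, the caspase inhibitor, was higher in cycling cells by 0.27 on the log2 scale (SE 0.0607, edgeR adjusted p = 0.00364) and in 6 of 6 samples. Its log2 ratio was 0.32, 0.52 and 0.11 in young replicates 1 to 3, compared with 0.13, 0.11 and 0.41 in old replicates 1 to 3, so young replicate 2 was the highest but not alone. Without young replicate 2, when 42.3% of 12241 genes were called, it was 0.21 (adjusted p = 0.0289).
Plaa (0.09), Ift74 (0.06), Lrrc19 (0.10) and Mysm1 (-0.06) did not pass the edgeR test, with adjusted p from 0.259 to 0.566. Eqtn was too sparse to be tested, and Tek passed the filter on low counts only through young replicate 2, so no test of it is given here or for Myog. For Fggy the call depended on how the p was bounded. It was lower in cycling cells of 5 of 6 samples, with log2 ratios of -0.37 (young replicate 1), -0.54 (young replicate 3) and -0.33, -0.31 and -0.30 (old replicates 1 to 3), beside 0.04 in young replicate 2. edgeR raises a p-value that falls under the one from a pure Poisson model, and this gave an adjusted p of 0.925 beside a log2 fold change of -0.27. Without the bound the adjusted p was 0.00519, and without young replicate 2, with the bound kept, Fggy fell by 0.36 on the log2 scale (SE 0.0653, adjusted p = 0.00174).
Without young replicate 2, the median log2 difference over these 6 members was 0.02, beside -0.05 over all genes tested. The genes related to the members by function split in this comparison: 6 of 10 genes of caspase inhibition and apoptosis rose and 3 fell, with Casp8 (0.60) the highest and Casp9 (-0.38) the lowest of those that passed. Of the 15 other intraflagellar transport B genes 3 rose and 6 fell, among them Ift27 (0.33) and Ttc30b (-0.77). Of the 9 VCP and ubiquitin partners of Plaa none rose and 3 fell, including Vcp itself (-0.27) and Ubxn6 (-0.33). Of the 9 histone H2A deubiquitinases and ligases 3 rose and 3 fell, among them Bmi1 (0.27) and Ring1 (-0.38). Of the 8 sugar kinases and pentose phosphate genes tested 2 rose, Xylb (0.53) and Gk (0.50). Of the 4 Tie pathway genes tested only Angpt2 passed (-0.48).

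Within young replicate 2, cells in later phases held more block UMIs, and the order was not the same once cells with a Myog UMI were left out. A cell held 25.4 ± 26.0 block UMIs in G1, 29.2 ± 23.8 in S and 31.5 ± 26.7 in G2/M (mean ± SD over 4275, 1928 and 4443 cells of 1 sample). Among cells without a Myog UMI the means were 31.5, 31.0 and 33.7, and the ratio of G2/M to G1 went from 1.24 to 1.07. In the other samples the ratio of G2/M to G1 lay between 0.981 and 1.07 over all cells. Across the cells of young replicate 2, the block sum correlated with the G2/M score at r = 0.107 and with the S score at 0.0662, both much lower than with Jun. Its correlation with the log10 of the total UMIs before thinning was 0.158, so cells with more UMIs before thinning held slightly more block UMIs per 5000.
The spread between cells did not fall when only G1 cells were used: the excess squared coefficient of variation was 1.01 in G1, 0.632 in S and 0.688 in G2/M.

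The third comparison set cells with at least 1 Myog UMI against cells without one, within each sample. Myog encodes myogenin, which myoblasts turn on when they commit to differentiate. Such cells made up 3.42%, 20.0% and 5.18% of young replicates 1 to 3 after thinning, compared with 0.636%, 14.5% and 45.6% of old replicates 1 to 3. These cultures hold no cell type known to lack Myog from which background RNA could be read, and the share in old replicate 1 shows only how low it can be. In young replicate 2 the Myog-positive cells held 13.6 ± 15.3 block UMIs (2132 cells) and the Myog-negative cells 32.4 ± 26.9 (8514 cells), a ratio of 0.421. In the other 5 samples this ratio lay between 0.948 and 1.09. The median depth before thinning was 15333 UMIs in the Myog-positive and 16512 in the Myog-negative cells of young replicate 2, and 37.7% against 65.4% of them were cycling.
Every member was lower in the Myog-positive cells of young replicate 2. The log2 ratio was -1.35 for Caap1, -1.16 for Plaa, -1.33 for Ift74, -1.72 for Lrrc19, -1.57 for Tek, -1.36 for Eqtn, -1.26 for Mysm1 and -1.21 for Fggy, and -0.80 for Jun. The sum of the 8 genes had a log2 ratio of -1.25 there and between -0.08 and 0.13 in the other samples, a difference that 1 sample does not allow to be tested.
Fggy and Jun were higher in the Myog-positive cells of each other sample. The log2 ratio of Fggy was 1.15 (young replicate 1), 1.58 (young replicate 3) and 0.35, 0.67 and 0.71 (old replicates 1 to 3), so it was higher in Myog-positive cells in 5 of 6 samples. Jun had 0.75 (young replicate 1), 0.62 (young replicate 3) and 0.50, 0.28 and 0.08 (old replicates 1 to 3). Mysm1 (-0.43 to 0.17), Plaa (-0.11 to 0.19) and Lrrc19 (-1.44 to 1.43) were each lower in Myog-positive cells in 4 of the other 5 samples. Tek and Eqtn had a log2 ratio above 0 in the 3 and 2 other samples that gave one, on 1 to 14 counts in the Myog-positive cells. The rest gave none because their Myog-positive cells had 0 counts. Their Myog-negative cells had 1 and 25 counts of Tek (young replicate 1 and old replicate 1). For Eqtn these were 7, 6 and 10 counts (young replicates 1 and 3 and old replicate 1).

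edgeR with the sample as a block called 30% of 12384 genes in this comparison, 13.2% as higher and 16.8% as lower. It called 1 of the same 6 members, and with 6 genes this count is not read against the share over all genes. Lrrc19 was lower in Myog-positive cells by a log2 fold change of -1.06 (SE 0.270, edgeR adjusted p = 0.0135) and in 5 of 6 samples. Outside young replicate 2 this rests on 1 to 38 counts of Lrrc19 in the Myog-positive cells of a sample. Without young replicate 2, when 21.8% of 12407 genes were called, Lrrc19 had -0.55 (adjusted p = 0.314) and was no longer called. In that same fit Fggy was called, higher by 0.89 (SE 0.149, adjusted p = 0.00285), whereas with all 6 samples it had 0.44 (SE 0.383, adjusted p = 0.448). Caap1, Plaa, Ift74 and Mysm1 had log2 fold changes from -0.38 (Caap1, adjusted p = 0.150) to -0.22 (Plaa, adjusted p = 0.308) over all samples. Without young replicate 2, Caap1, Plaa, Ift74 and Mysm1 lay between -0.14 and -0.03, and Tek and Eqtn were too sparse.
Without young replicate 2, the median over the 6 members was -0.10, beside -0.08 over all genes tested. Among the genes related to the members, 3 of the 4 Tie pathway genes tested fell in Myog-positive cells, including Angpt1 (-0.96) and Grb14 (-1.09), as did 5 of 10 genes of caspase inhibition and apoptosis, such as Bcl2 (-0.97) and Casp8 (-0.63). Of the 8 sugar kinases and pentose phosphate genes tested 3 fell, among them Tkt (-1.13) and G6pdx (-0.84). Of the 15 other intraflagellar transport B genes 1 rose, Ift81 (0.42), the partner of Ift74, and 1 fell, Ttc26 (-0.55). Of the 9 histone H2A deubiquitinases and ligases only Ring1 passed (0.35), and of the 9 VCP and ubiquitin partners of Plaa only Nsfl1c (0.25).

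The cells of each sample were also ordered by their block UMIs and divided into 4 sets of equal size. From the lowest to the highest set of young replicate 2, with means of 6.43, 16.3, 28.6 and 63.2 block UMIs, the share of Myog-positive cells was 46.0%, 20.9%, 9.17% and 3.98%. The share of cycling cells over the same sets was 48.2%, 58.9%, 64.6% and 67.7%, and the mean of Jun was 7.09, 12.6, 16.5 and 22.3 UMIs. The summed genes before the block measured 10.5, 10.7, 10.6 and 10.4 UMIs over these sets, and those after it 1.85, 1.91, 1.97 and 2.14 UMIs. The sum before the block was mostly Rps6, so it says little about the other genes in it. In the other samples the set means ran only from 0 in the lowest to between 2.22 and 2.57 block UMIs in the highest. Cells with equal counts fell in different sets there. The share of Myog-positive cells moved by 0.243 to 1.42 percentage points over these sets, which leave little room for a difference. The Pax7-positive share of young replicate 2 was 19.2%, 23.7%, 25.1% and 24.1%. From the lowest to the highest set it also went from 3.93% to 6.58% in young replicate 1, from 4.16% to 7.03% in old replicate 1, from 9.35% to 11.4% in old replicate 2 and from 15.2% to 18.0% in old replicate 3, while Pax7 was nearly missing in young replicate 3. Across the cells of young replicate 2 the block sum correlated with Myod1 at r = -0.27, with Des at -0.24, with Myog at -0.23 and with Pax7 at 0.01. In the other samples these were -0.03 to 0.04, -0.02 to 0.01, -0.04 to -0.0024 and 0.02 to 0.05. By rank (Spearman) the order in young replicate 2 was different, with Myog at -0.418, Myod1 at -0.279, Des at -0.271 and Pax7 at 0.0457.
The cells of young replicate 2 with the fewest block UMIs were also described apart. The 793 cells (7.45%) with 4 or fewer, where at least 99.2% of the cells of each other sample lay, were Myog-positive in 57.0%, compared with 17.1% of the remaining 9853 cells. They were cycling in 43.8% against 61.1%, and held 4.44 Jun UMIs against 15.4. Cells with as few block UMIs in the other samples held 0.394 to 0.789 Jun UMIs. The free RNA in the droplets was not measured, so the Jun UMIs of these cells are not read as their own expression.

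**Figure D5:**
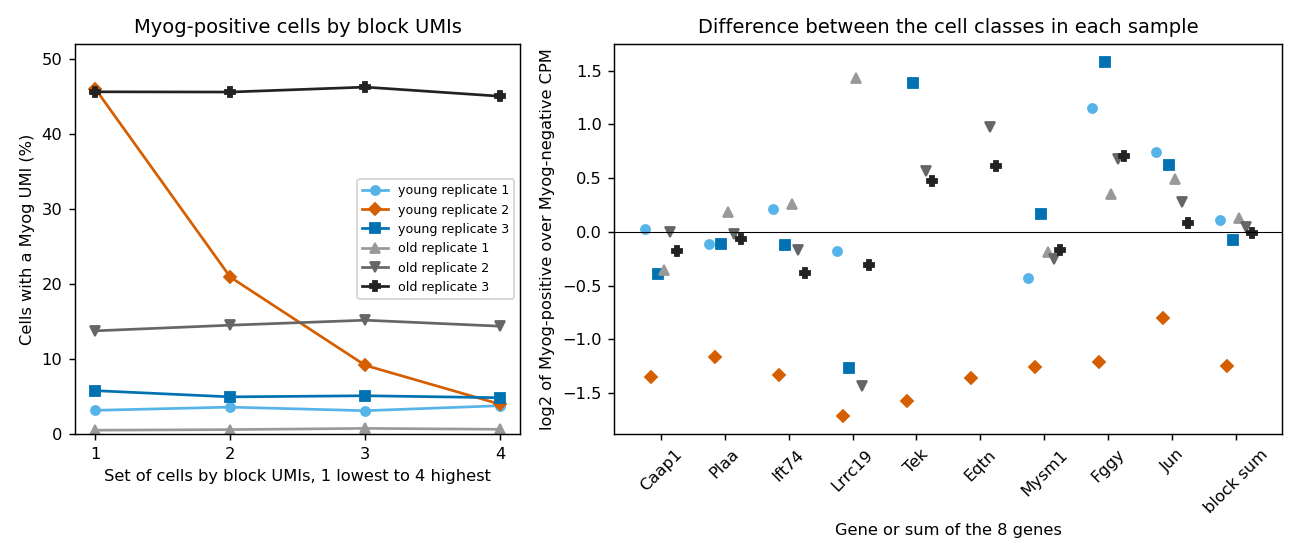
Share of Myog-positive cells (y axis, %) by set of cells ordered by block UMIs, 1 lowest to 4 highest (x axis), and log2 ratio of Myog-positive over Myog-negative CPM (y axis) for each member, Jun and the block sum, by sample. In young replicate 2 the share goes from 46.0% to 3.98% and every member lies between -1.72 and -1.16, while Fggy lies above 0 in the other 5 samples.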

How the data were processed

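The deposited files hold raw UMI counts per gene and barcode for 6 samples of droplet 3′ single-cell RNA sequencing, made by the authors with Cell Ranger 7.2.0 on mm10 per the submitters' processing notes; the file headers give Cell Ranger 7.0.0 with 21849 genes for young replicate 1 and old replicate 1 and 7.2.0 with 32285 genes for the others, which split both groups alike. Totals per deposited sample ran from 133974782 to 196481316 UMIs. Here the 21485 common genes were used (98.5% or more of UMIs), and cells with at least 1000 UMIs, 500 genes and under 15% mitochondrial UMIs were kept. No doublet caller was run; an alternative left out the cells of highest UMI totals (0.8% per 1000 barcodes). For per-cell values, cells were thinned to 5000 UMIs, and 149 to 373 shallower cells per sample were left out. Cell cycle scores used scanpy 1.11.5. Counts were summed per sample, or per sample and class, and tested with edgeR 4.0.16 (R 4.3.3; TMM, filterByExpr, robust quasi-likelihood with Benjamini-Hochberg adjustment over all genes tested), with a gene-list term between ages and a sample block within samples; DESeq2 1.42.0 was an alternative. The fits were tested on simulated data. Intervals cover counting error only.

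The members and gene lists were chosen with earlier results of these data known. The named genes are the members, Jun, the 10 expressed genes on either side, the 5 most alike over samples and over cells of young replicate 2, and at most 2 genes per list and direction with the largest called change. Gene positions come from GENCODE M21, promoters from RefSeq. Same-numbered young and old samples correlated at 0.39, 0.32 and -0.14 in their deviations from the group means, so the numbers were not taken as pairs.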

Additional observations from a re-analysis of the deposited data

Results flagged for a closer look

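Genes of the longer list that lie inside the block but outside the common genes also had counts in young replicate 2, as data that entered no comparison above. The non-coding antisense gene Junos, which overlaps Jun, had 42334 counts there (216 CPM) and 729 to 1998 in the other 3 samples counted on that list. It lies on the opposite strand of Jun, and how strand was used in counting is not given in the sources used here. Gm830 had 2004 counts (10 to 126 in the others), Gm12694 had 1689 (19 to 38), and Gm12703 had 1507 (95 to 124). Gm12708 had 199 counts (2 to 9), Gm12707 had 36 (1 to 8), 4930551L18Rik had 25 (0 to 1) and Gm28096 had 16 (0 to 1). Each of the 8 was highest in young replicate 2 and, for the counts given, above the 3 counts that a count of 0 allows.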

How the results depend on the processing

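The block share of young replicate 2 against the other samples stayed between 28.8 and 30.2 times their median under all 4 alternatives. The cell-to-cell spread, 0.796, was 0.798 at 2000 UMIs, 0.835 without the cells of highest UMI totals and 1.01 in G1 cells. Between old and young, the number of genes called went from 1 to 2 without TMM, 219 with DESeq2, 0 without the gene-list term, 0 on the longer gene list alone, and 0 to 3 when each sample was left out; the cause was not tested, and no member was called in any of these. Leaving out each sample in turn, the log2 fold changes ran from -4.12 to 0.0075 for Caap1, -6.62 to 1.47 for Tek, -3.79 to 0.66 for Eqtn and -3.97 to 2.27 for Fggy, in each case with the highest value, the one above 0, without young replicate 2. With replicate number as a replicate block Fggy reversed to 0.21, still far from any call, and 1 gene was called. In cycling against G1 cells, Tek, which passed the filter on low counts only through young replicate 2, reversed with DESeq2 (-0.39), Lrrc19 at 2000 UMIs (-0.033) and in Myog-negative cells (-0.049), and Ift74 in Myog-negative cells (-0.0082), none of them called. Caap1 kept its call in all 16 settings, the reported one included. Fggy was called there in 6 of 16 settings and was negative in all (-0.36 to -0.15). In Myog-positive against Myog-negative cells, Tek, with the same limit, reversed with DESeq2 (0.016), and Lrrc19 kept its call in 13 of 15 settings, not with DESeq2 (adjusted p = 0.176) or without young replicate 2. The Myog-negative cells and the edgeR fits without the Poisson bound were chosen as alternatives after seeing the data. Depth limits Eqtn, Tek and Lrrc19 outside young replicate 2, where a cell of 5000 UMIs rarely holds any, and a single high population limits every statement on age.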
